A study of Mus musculus with 12 samples.

Results

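Expression of 10 glucocorticoid-responsive genes and metallothioneins was examined in mouse liver by RNA sequencing. The 10 were taken from the deposited table by symbol, from 41128 genes in all, and each was found once: the glucocorticoid receptor gene Nr3c1, the steroid-activating enzyme Hsd11b1, the receptor-responsive genes Tat, Fkbp5, Tsc22d3, Sgk1, Dusp1 and Zbtb16, and the metallothioneins Mt1 and Mt2. The livers came from 12 C57BL/6 mice killed at 6 weeks of age. Of these, 6 were Germ-free (GF), kept in sterile isolators throughout, and 6 were conventionalized (CV), kept germ-free until weaning on day 21 and then housed for 3 weeks on soiled bedding from the same animal facility. Each condition held 3 mice labelled male and 3 labelled female, with 1 library per mouse, and the labels name no genetic alteration and no drug. The CV livers thus came from mice colonized after weaning, not from birth, by a flora that the labels do not describe. Hour of killing and feeding state were not given in the sources used here.

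Corticosterone, the main glucocorticoid of mice, enters hepatocytes and binds the glucocorticoid receptor, which is held in the cytoplasm by a chaperone complex. The bound receptor moves to the nucleus and activates genes through palindromic sites known as glucocorticoid response elements, and its plasma ligand follows a daily rhythm and rises with stress and fasting. Metallothioneins are small cysteine-rich proteins that bind zinc and copper. Their genes are induced by zinc through the factor MTF1 at metal response elements, by glucocorticoids and by the cytokines of the acute phase.

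The start-site sequences of the metallothioneins and of Sgk1 are shown because they hold matches to motifs of the metal or the glucocorticoid response element. RefSeq windows of 250 bases before to 50 bases after the start were searched for 8 of the 10 genes (15 windows), on build GRCm38.p6. Those shown are printed on the sense strand of the gene. In the windows of Mt1 (chr8:94178839-94179138, plus strand) and Mt2 (chr8:94172368-94172667, plus strand), capitals mark matches on either strand to the metal response element motifs TGCGCNC and TGCACNC.

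Mt1: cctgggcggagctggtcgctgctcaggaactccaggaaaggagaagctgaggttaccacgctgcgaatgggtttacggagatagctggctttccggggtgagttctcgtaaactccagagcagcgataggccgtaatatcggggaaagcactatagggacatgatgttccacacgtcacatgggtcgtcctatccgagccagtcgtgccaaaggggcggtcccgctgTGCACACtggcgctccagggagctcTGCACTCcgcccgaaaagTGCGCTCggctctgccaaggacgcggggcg

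Mt2: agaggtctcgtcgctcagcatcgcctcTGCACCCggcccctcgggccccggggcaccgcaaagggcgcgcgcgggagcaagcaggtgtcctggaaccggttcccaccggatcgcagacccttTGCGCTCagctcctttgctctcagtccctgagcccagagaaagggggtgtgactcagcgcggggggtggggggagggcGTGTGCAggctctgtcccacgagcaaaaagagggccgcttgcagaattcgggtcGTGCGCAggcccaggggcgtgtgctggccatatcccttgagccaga

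The Mt1 window held 3 matches, of which 1 was to TGCGCNC and 2 to TGCACNC, and the Mt2 window held 4, divided 2 and 2. The windows of Hsd11b1 and Dusp1 and 1 of the Sgk1 windows held 1 match each. Of the 32851 windows searched, which did not cover every gene, 15.4% held at least 1 match to TGCGCNC and 12.6% at least 1 to TGCACNC. Sgk1 had 6 windows. The one at chr10:21993640-21993939 (plus strand) follows, with capitals for a complete palindrome, AGAACA and TGTTCT spaced by any 3 bases, and for a further single arm, AGAACA on either strand.

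Sgk1: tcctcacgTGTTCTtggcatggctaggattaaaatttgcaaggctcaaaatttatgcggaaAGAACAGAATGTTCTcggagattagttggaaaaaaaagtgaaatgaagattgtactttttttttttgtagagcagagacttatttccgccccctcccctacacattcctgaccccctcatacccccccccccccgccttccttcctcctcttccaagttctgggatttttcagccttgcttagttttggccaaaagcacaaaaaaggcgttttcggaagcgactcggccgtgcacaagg

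This palindrome, read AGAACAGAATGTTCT and beginning 189 bases before the start, was present in 3 of the 32851 windows (0.00913%). No other window searched for the 10 genes held it, and no window of Nr3c1 or Zbtb16 was searched. The single arm was present in 19.0% of all windows searched. A further 2 of the Sgk1 windows and 1 of the 3 Tsc22d3 windows held the arm. The core ACANNNTGT, found in 6.85% of all windows searched, was matched once in the Mt1 window and once in another Sgk1 window. The palindrome contains both the arm and the core, and a match describes letters only.

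The libraries held 5993619 to 10975691 reads in GF and 8890529 to 15290835 in CV livers. The mitochondrial ribosomal RNAs and other abundant loci, 8 in all, took 42.0% to 69.7% of reads in GF and 5.42% to 22.0% in CV livers, a difference confounded with condition. GF females also lay above GF males (58.4% to 69.7% against 42.0% to 51.9%), and CV males 2 and 3 lay above the other CV livers (21.5% and 22.0% against 5.42% to 8.01%). The library labelled CV male 3 went against its label: it held an Xist value of 2382 and 0 Y-linked reads among 8890529 reads, a count that allows up to 3, whereas the other 5 male libraries held 796 to 1314 Y-linked reads. Differences that rest on it are given with and without it.

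Values are normalized read counts, that is, reads divided by 1 size factor per library. Differences are on the log2(value + 1) scale with their standard errors (SE) from limma, n = 3 per group unless a library was left out, and a gene was called at an adjusted p under 0.05 over the 11782 genes with a mean value of at least 10. All 10 genes passed that filter. The difference between CV and GF livers within each sex is the one the genes were chosen by, so these values are described without a test. The shares of mitochondrial ribosomal RNA and of the abundant loci both differ between the conditions. Fits with the one or the other as a covariate called 0 and 7 of the 11782 genes between CV and GF over both sexes, and the median SE of 106 genes examined went from 0.246 to 0.842 and 0.995.

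**Figure D1:**
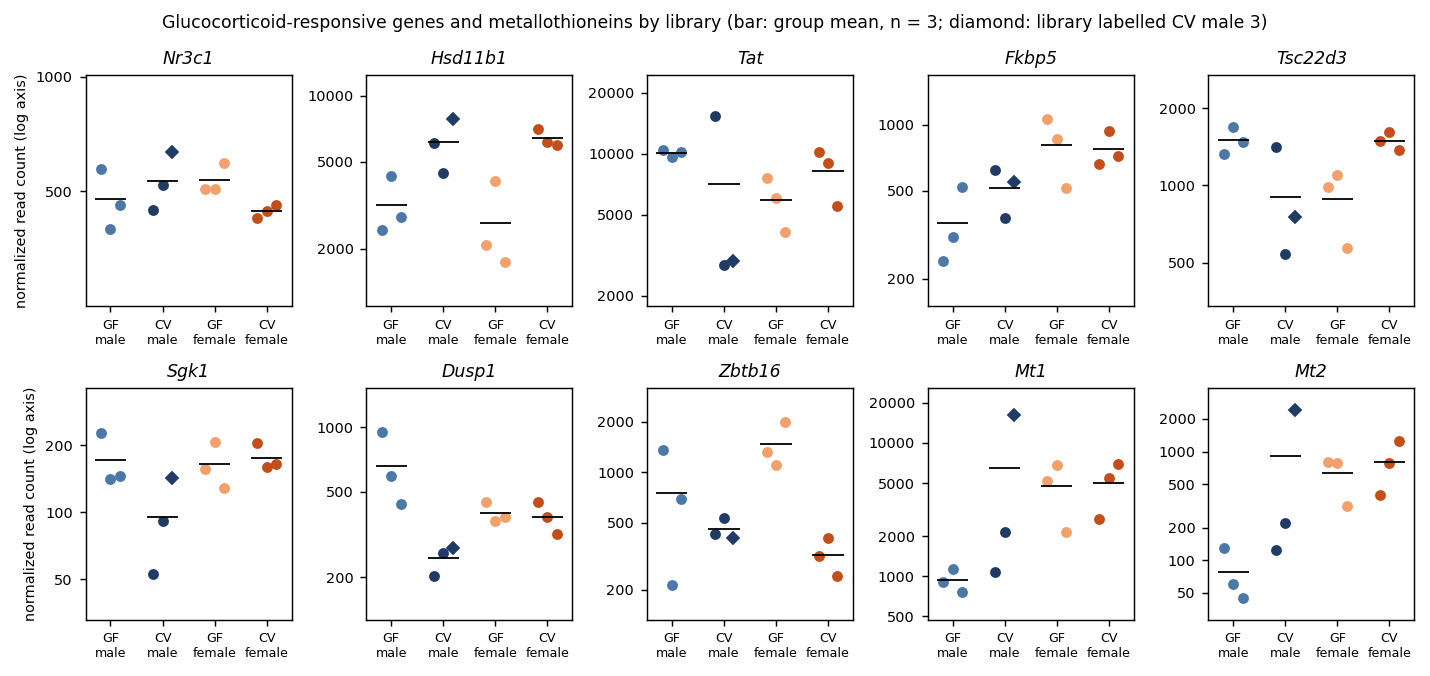
Normalized read counts (log axis) of the 10 genes in each of the 12 livers, by condition and sex. Circles are livers, the diamond is the library labelled CV male 3, and bars are group means of 3. Hsd11b1 lay higher in CV livers of both sexes, Dusp1 was lowest in CV males, Zbtb16 was highest in GF females, and Mt1 and Mt2 spanned the widest range.

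Hsd11b1 was the only one of the 10 whose CV and GF values were separated in both sexes. Its enzyme regenerates active corticosterone from 11-dehydrocorticosterone inside the cell, and the gene lies at chr1:193221634-193264075 on the minus strand of GRCm38. In males the GF livers had 2437, 4325 and 2797 and the CV livers 6125, 4447 and 7827. In females the GF livers had 2088, 4067 and 1750 and the CV livers 7070, 6153 and 5988. The separation was narrow in males, where GF male 2 and CV male 2 lay next to each other, and wide in females. The log2 difference was 0.95 ± 0.35 in males, 0.76 without the library labelled CV male 3, and 1.38 ± 0.35 in females. It was above 0 under both other scalings (0.65 and 1.26 in males, 0.75 and 2.19 in females). With the mitochondrial ribosomal RNA share or the abundant loci share as a covariate it was 1.26 ± 0.61 or 0.74 ± 0.76 in males. In females it was then 2.10 ± 1.23 or 0.96 ± 1.41. Hsd11b1 overlaps Lamb3 on the opposite strand and a predicted gene on its own strand, and how strand was treated in counting is not given in the sources used here.

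The receptor itself varied least. Nr3c1 had 571, 398 and 459 in GF males and 446, 520 and 634 in CV males, which overlapped. GF females had 506, 508 and 592 and CV females 424, 443 and 460, so that every CV female lay below every GF female. The log2 differences of 0.16 ± 0.22 and -0.27 ± 0.22 were within 2 SE of 0, and their sign changed with the scaling, from -0.14 to 0.48 in males and from -0.90 to 0.54 in females. The male difference was 0.03 with the library labelled CV male 3 left out. With a trend on transcript length and base composition removed both differences were above 0, at 0.58 ± 0.19 and 0.56 ± 0.19, and past the threshold for a call. The highest library of the 12 exceeded the lowest 1.59-fold.

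Dusp1 encodes a phosphatase that inactivates MAP kinases and is an early glucocorticoid target (chr17:26505590-26562128, minus strand). GF males had 951, 595 and 441 and CV males 203, 261 and 273. GF females had 447, 367 and 383 and CV females 449, 382 and 317. All CV males lay below all other livers, whereas the female groups overlapped. The log2 difference was -1.37 ± 0.27 in males, -1.45 without the library labelled CV male 3, and -0.07 ± 0.27 in females. Scaling to all reads gave 0.74 in females. With the mitochondrial ribosomal RNA share or the abundant loci share as a covariate it was -0.76 ± 0.44 or -0.65 ± 0.56 in males, neither called. In females it was then 1.35 ± 0.90 or 1.36 ± 1.04. Its interval holds other annotated genes on both strands, among them Ergic1 on the opposite one.

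Zbtb16, a zinc-finger repressor induced by glucocorticoids in many cell types (chr9:48654297-48836222, minus strand), showed its separation in females instead. GF females had 1318, 1107 and 1984 and CV females 315, 405 and 241. GF males had 1354, 212 and 689 and CV males 430, 529 and 406. Every GF female lay above every CV female, whereas GF males were scattered more widely than the other groups for this gene and bracketed the CV males. The log2 difference was -2.18 ± 0.46 in females and -0.36 ± 0.46 in males, and -0.29 in males with the library labelled CV male 3 left out. It was negative under both other scalings, but with the abundant loci share added as a covariate it was 0.40 ± 1.87 in females and 0.93 ± 1.02 in males.

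For Tat and Tsc22d3, CV male 1 stood apart from CV males 2 and 3. Tat encodes tyrosine aminotransferase, the classical glucocorticoid-induced enzyme of liver amino acid breakdown. GF males had 10477, 9611 and 10242, CV males 15393, 2833 and 2973, GF females 7582, 6094 and 4102, and CV females 10210, 9032 and 5537. CV male 1 was thus the highest and CV males 2 and 3 the lowest of all 12 livers. CV males 2 and 3 were also the CV livers with the larger share of abundant loci. The log2 difference was -0.997 ± 0.51 in males and 0.48 ± 0.51 in females. It was -1.80 in males without CV male 1, and -0.61 with the library labelled CV male 3 left out. With the mitochondrial ribosomal RNA share or the abundant loci share as a covariate it was -2.73 ± 0.76 or -3.86 ± 0.81 in males and -3.58 ± 1.53 or -5.24 ± 1.49 in females, so that the sign turned in females.

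Tsc22d3 encodes GILZ, an anti-inflammatory mediator of glucocorticoids. GF males had 1328, 1687 and 1477 and CV males 1410, 541 and 750. GF females had 983, 1093 and 569 and CV females 1490, 1607 and 1377. CV male 1 lay within the range of GF males and the other CV males below it, while all CV females lay above all GF females. The log2 differences were -0.84 ± 0.32 in males, -0.77 without the library labelled CV male 3, and 0.81 ± 0.32 in females. The female difference was 1.62 and 0.18 under the other scalings and turned to -0.63 and -2.29 with the mitochondrial ribosomal RNA share or the abundant loci share as a covariate.

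Sgk1, a kinase that acts on ion channels and transporters, had its lowest values in 2 of the CV males. GF males had 227, 141 and 146 and CV males 52.6, 91.4 and 143. GF females had 157, 207 and 128 and CV females 204, 159 and 164. CV males 1 and 2 lay below the other 10 livers, and the library labelled CV male 3 lay within the GF range. The log2 difference was -0.91 ± 0.32 in males, -1.26 without that library, and 0.12 ± 0.32 in females, where the other scalings gave 0.92 and -0.51. With these covariates it was 0.49 ± 0.39 and 0.54 ± 0.60 in males and 3.39 ± 0.79 and 3.02 ± 1.11 in females.

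Fkbp5, the co-chaperone that lowers the affinity of the receptor for its ligand, had 239, 309 and 522 in GF males and 623, 375 and 551 in CV males. GF females had 1055, 859 and 514 and CV females 664, 940 and 719. CV and GF values overlapped in both sexes, with log2 differences of 0.58 ± 0.32, 0.52 without the library labelled CV male 3, and -0.02 ± 0.32. With the abundant loci share as a covariate they were -0.77 ± 0.62 and -2.71 ± 1.14. The interval of this gene holds 4 other annotated genes.

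The metallothioneins had the widest range, 21.4-fold for Mt1 and 53.2-fold for Mt2 between the highest and the lowest liver. Mt1 had 910, 1139 and 757 in GF males and 1074, 2166 and 16193 in CV males. GF females had 5218, 6847 and 2143 and CV females 2700, 5445 and 6983. The library labelled CV male 3 held the highest value of all, while CV male 1 lay within the range of GF males and CV male 2 beside GF female 3, the lowest female.

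Mt2 had 131, 59.9 and 45.3 in GF males and 125, 220 and 2414 in CV males. GF females had 800, 779 and 316 and CV females 396, 793 and 1240. CV male 1 again lay within the range of GF males, CV male 2 lay below every female, and the library labelled CV male 3 was highest. In males the log2 difference between CV and GF was 1.86 ± 0.70 for Mt1 and 2.50 ± 0.78 for Mt2, and without that library 0.73 and 1.22. In females it was 0.14 ± 0.70 and 0.33 ± 0.78, and below 0 when values were scaled to reads outside the abundant loci (-0.49 and -0.30) or with the length and base composition trend removed (-0.77 and -0.43). With mitochondrial ribosomal RNA as a covariate the female differences were 6.94 ± 1.92 and 8.04 ± 2.09, and with the abundant loci 4.67 ± 2.80 and 6.38 ± 2.97. The male ones were then 4.77 ± 0.95 and 5.80 ± 1.04, and 4.13 ± 1.52 and 5.53 ± 1.61.

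Both genes together took 0.00943% to 0.0115% of all reads in GF males, 0.0214% to 0.0617% in GF females and 0.0481% to 0.115% in CV females. In the libraries labelled CV male 1 to 3 the share was 0.0154%, 0.0329% and 0.230%. Reads of Mt1 per read of Mt2 lay between 5.63 and 9.83 in 10 livers and reached 19.0 and 16.7 in GF males 2 and 3, where Mt2 rested on 45 and 32 reads. This ratio concerns reads and not molecules, since the lengths differ. Mt2 overlaps a predicted gene on the opposite strand.

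**Figure D2:**
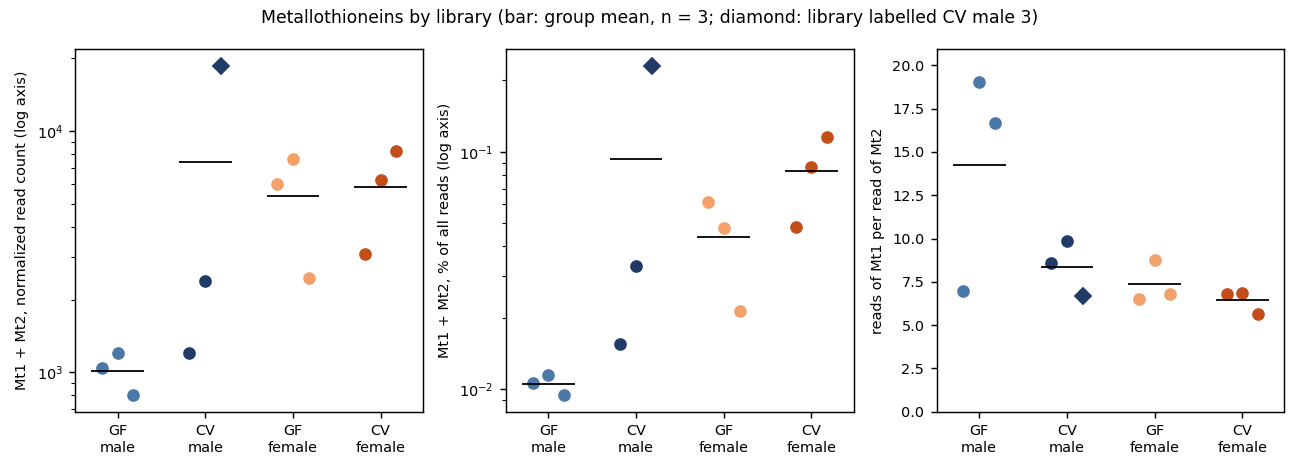
Summed Mt1 and Mt2 as normalized read count and as percent of all reads (both log axes), and reads of Mt1 per read of Mt2 (linear axis), in each liver. Circles are livers, the diamond is the library labelled CV male 3, and bars are group means of 3. The 3 GF males lie between 802 and 1199 in the left panel and every female at 2459 or above, while the diamond at 18607 stands above all.

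By count, 4 of the 10 genes were called between CV and GF males, against 29.5% of all genes tested: Hsd11b1 and Mt2 higher and Dusp1 and Sgk1 lower in CV. In females 3 of 10 were called, against 55.8% of all genes: Hsd11b1 and Tsc22d3 higher and Zbtb16 lower. Values did not overlap for 2 of 10 in males, where 43% of all genes were so separated, and for 4 of 10 in females, where the figure was 64.9%. Because the genes were chosen with this contrast in view, nothing is read from these counts. When the library labelled CV male 3 was left out, 2 were called in males, Dusp1 and Sgk1.

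**Figure D3:**
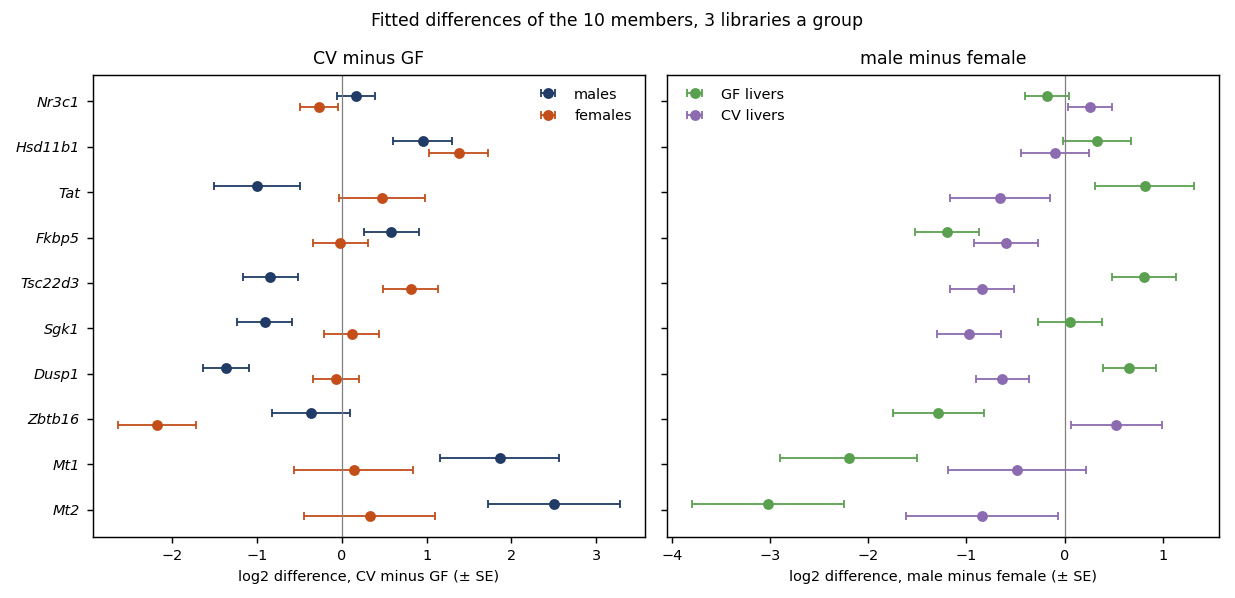
Fitted log2 differences (points) with SE (bars) of the 10 genes. The left panel shows CV minus GF in males and in females, and the right panel male minus female in GF and in CV livers, 3 libraries a group. Mt1 and Mt2 lie furthest below 0 for male minus female in GF livers, at -2.20 and -3.02.

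Whether males and females differed within a condition was tested next. The choice of genes did not name this contrast, but it was made with earlier results of these data known. In GF livers none of the 10 was called, against 1.63% of all genes, although 6 of 10 had an unadjusted p under 0.05 in limma, as had 17.6% of all genes. DESeq2 called 1 of them, Fkbp5, and the quasi-likelihood test of edgeR called 0. Mt1, Mt2, Tat and Tsc22d3 did not overlap between the sexes in GF livers, 4 of 10, where 18.7% of all genes were so separated. The first pair lay lower and the second pair higher in males.

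The metallothioneins had the largest of these differences. The male minus female log2 difference in GF livers was -3.02 ± 0.78 for Mt2 (adjusted p = 0.0589) and -2.20 ± 0.70 for Mt1 (adjusted p = 0.124). The group means were 78.7 ± 45.7 (SD, n = 3) against 632 ± 274 (SD, n = 3) for Mt2 and 935 ± 192 (SD, n = 3) against 4736 ± 2389 (SD, n = 3) for Mt1. All 12 libraries share 1 estimate of the spread, to which the library labelled CV male 3 contributes. Without it the differences were unchanged and both genes were called, with adjusted p = 0.000822 for Mt2 and 0.00922 for Mt1. With the abundant loci share as a covariate, which was itself higher in GF females, the differences were -0.95 ± 1.22 and -0.65 ± 1.15, and with that of mitochondrial ribosomal RNA -0.26 ± 0.92 and 0.23 ± 0.85.

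Fkbp5 followed Mt2 by unadjusted p, with a difference of -1.20 ± 0.32 in GF livers (adjusted p = 0.0714) and 1 GF male above 1 GF female. Zbtb16 differed by -1.29 ± 0.46 (adjusted p = 0.161). Dusp1 and Tsc22d3, at 0.66 ± 0.27 (adjusted p = 0.216) and 0.81 ± 0.32 (adjusted p = 0.205), leaned towards males. For Sgk1 the difference was 0.05 ± 0.32.

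In CV livers none of the 10 was called between the sexes either, against 0.0594% of all genes. DESeq2 and edgeR also called 0, and 3 of 10 had an unadjusted p under 0.05 in limma, as had 5.10% of all genes. Values did not overlap for Sgk1, Dusp1 and Fkbp5, lower in males, and for Zbtb16, higher in males, 4 of 10 where 10.9% of all genes were so separated. Without the library labelled CV male 3 these 4 stayed apart and Mt1 and Mt2 lay lower in males too, 6 of 10, but with 2 male livers values part more readily. The smallest adjusted p was 0.724, for Sgk1, at -0.98 ± 0.32. For Mt1 and Mt2 the differences were -0.48 ± 0.70 and -0.85 ± 0.78. Without the library labelled CV male 3 they were -1.62 ± 0.48 (adjusted p = 0.282) and -2.13 ± 0.51 (adjusted p = 0.0770), that of Sgk1 was -1.32 ± 0.32 (adjusted p = 0.0881), and that of Tat moved from -0.66 to -0.28. DESeq2 and edgeR put Mt1 (0.36 and 0.34) and Mt2 (0.18 and 0.16) slightly higher in CV males when that library was included.

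The interaction, whether the CV minus GF difference itself differed between the sexes, is built from the differences the genes were chosen by. Nothing is therefore read from its counts about these genes. Its fit called 0 of 10 genes, and 0% of all genes. In limma 4 of 10 had an unadjusted p under 0.05, as had 11.7% of all genes, and edgeR called 0 of the 10. DESeq2 called 0 of them too, but gave an adjusted p to only 1591 genes, of which 24 were called. A gene without an adjusted p could not be called there. The smallest unadjusted p belonged to Tsc22d3, with an interaction of -1.65 ± 0.46 (adjusted p = 0.417). Dusp1 followed at -1.30 ± 0.38 and Zbtb16 at 1.82 ± 0.66, with the same adjusted p, and these were -1.38 ± 0.42 and 1.89 ± 0.70 without the library labelled CV male 3. Without CV male 1 the interactions of Tsc22d3 (-2.03 ± 0.37) and Tat (-2.28 ± 0.43) were called, both at adjusted p = 0.0321, as were 291 of the 11782 genes. The CV males left there are CV male 2 and the library labelled CV male 3, whose label is in doubt. Without the library labelled CV male 3 they were -1.58 ± 0.50 (adjusted p = 0.620) and -1.09 ± 0.72 (adjusted p = 0.660), and of the 12 omissions that of CV male 1 was the only one to give a call among the 10 genes.

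Other genes of these pathways, none of them among the 10, were compared between CV and GF livers over both sexes. Their lists too were chosen with earlier results of these data known. The called genes named from each list had its smallest adjusted p in each direction. Of 22 further glucocorticoid-responsive genes, 10 were called, 4 higher and 6 lower in CV livers, beside 61.1% of all genes tested, 32.3% higher and 28.7% lower. The median log2 difference was -0.22 over this list and 0.07 over all genes. Scaling to all reads moved the median of all genes to 0.62 and the split of the list to 9 higher and 2 lower, and scaling to reads outside the abundant loci moved them to -0.38 and to 1 higher and 12 lower.

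The metabolic genes Agt (angiotensinogen), at 1.12 ± 0.21 (adjusted p = 0.000307), and Tdo2 (tryptophan dioxygenase), at 0.86 ± 0.23 (adjusted p = 0.00438), rose. Klf9, a glucocorticoid-induced transcription factor, rose by 0.66 ± 0.17, and Pck1, the gluconeogenic carboxykinase, by 0.67 ± 0.28 (adjusted p = 0.0446). Ppargc1a, the coactivator of gluconeogenic and mitochondrial genes, changed most, by -2.36 ± 0.20 (adjusted p = 4.86e-07). Per1, a clock gene with a glucocorticoid response element, changed by -1.81 ± 0.20 (adjusted p = 2.31e-06). Ddit4, an inhibitor of mTOR signalling, changed by -1.001 ± 0.26, and Irs2, an adaptor of the insulin receptor, by -0.88 ± 0.26 (adjusted p = 0.00866). These 8 kept their sign under both other scalings. For Agt, Klf9, Tdo2, Ppargc1a, Per1 and Irs2, CV and GF livers did not overlap in either sex. Without the library labelled CV male 3, 8 of the 22 were called, 3 higher and 5 lower, and Pck1 (0.72) was not (adjusted p = 0.0505). Pck1 was also not called without CV male 1 (0.48), with scaling outside the abundant loci (0.21) or with the length and base composition trend removed (0.41). Irs2 was at -0.32 with scaling to all reads and at -0.23 with the trend removed, neither called. Klf9 (0.20) and Tdo2 (0.39) were not called with scaling outside the abundant loci, nor Ddit4 (-0.46) with scaling to all reads. Of Ddit4, 2 of the 3 CV females lay above all GF females, and of Pck1, 1 CV male lay below all GF males.

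Of 15 genes of the receptor complex and of steroid handling, 14 passed the filter, Hsd11b2 being the exception. Of the 14, 12 were called, 8 higher and 4 lower in CV livers, beside 61.1% of all genes tested. The median log2 difference was 0.57. The split was 9 higher and 1 lower when scaled to all reads, and 4 higher and 5 lower when scaled to reads outside the abundant loci, and 7 higher and 4 lower without the library labelled CV male 3. Serpina6, which encodes the corticosteroid-binding globulin of plasma, rose by 1.77 ± 0.22 (adjusted p = 7.77e-06). Fkbp4, the co-chaperone that carries the receptor towards the nucleus, rose by 1.22 ± 0.20. Akr1d1, the reductase that inactivates steroids, rose by 1.14 ± 0.21, and H6pd, which supplies the NADPH used by the product of Hsd11b1, by 0.99 ± 0.23 (adjusted p = 0.00153).

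The called genes that were lower were the mineralocorticoid receptor Nr3c2, at -1.82 ± 0.28 (adjusted p = 4.08e-05), the corepressor Ncor1, at -0.98 ± 0.17, the coactivator Ncoa2, at -0.91 ± 0.16, and the mediator subunit Med1, at -0.75 ± 0.15. With a trend on transcript length and base composition removed, Ncor1, Ncoa2 and Med1 were at 0.03, 0.01 and 0.15, whereas Nr3c2 was at -1.33, and with scaling to all reads Ncor1, Ncoa2 and Med1 were not called. Ncor1 overlaps Ttc19 and Pigl on the opposite strand.

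Of 15 zinc-handling genes, 13 passed the filter, Mt3 and Mt4 being the exceptions. Of the 13, 5 were called, 4 higher and 1 lower, beside 61.1% of all genes tested, and the median was -0.08. The split was 5 higher and 1 lower when scaled to all reads, and 3 higher and 6 lower when scaled to reads outside the abundant loci, and 4 higher and 1 lower without the library labelled CV male 3, where the median was 0.08. Slc30a1, the zinc exporter of the plasma membrane, rose by 1.51 ± 0.22 (adjusted p = 2.29e-05). The importers Slc39a4 and Slc39a5 rose by 2.08 ± 0.34 and 2.17 ± 0.45, the latter from values of 0 to 17.3 in GF to 10.3 to 74.7 in CV livers, and Slc39a8 rose by 0.84 ± 0.19 but, at 0.38, was not called with scaling outside the abundant loci. Slc39a5 overlaps Ankrd52 on the opposite strand. Slc39a14, the importer induced in the acute phase, changed by -1.26 ± 0.19 (adjusted p = 3.34e-05), without overlap in either sex.

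**Figure D4:**
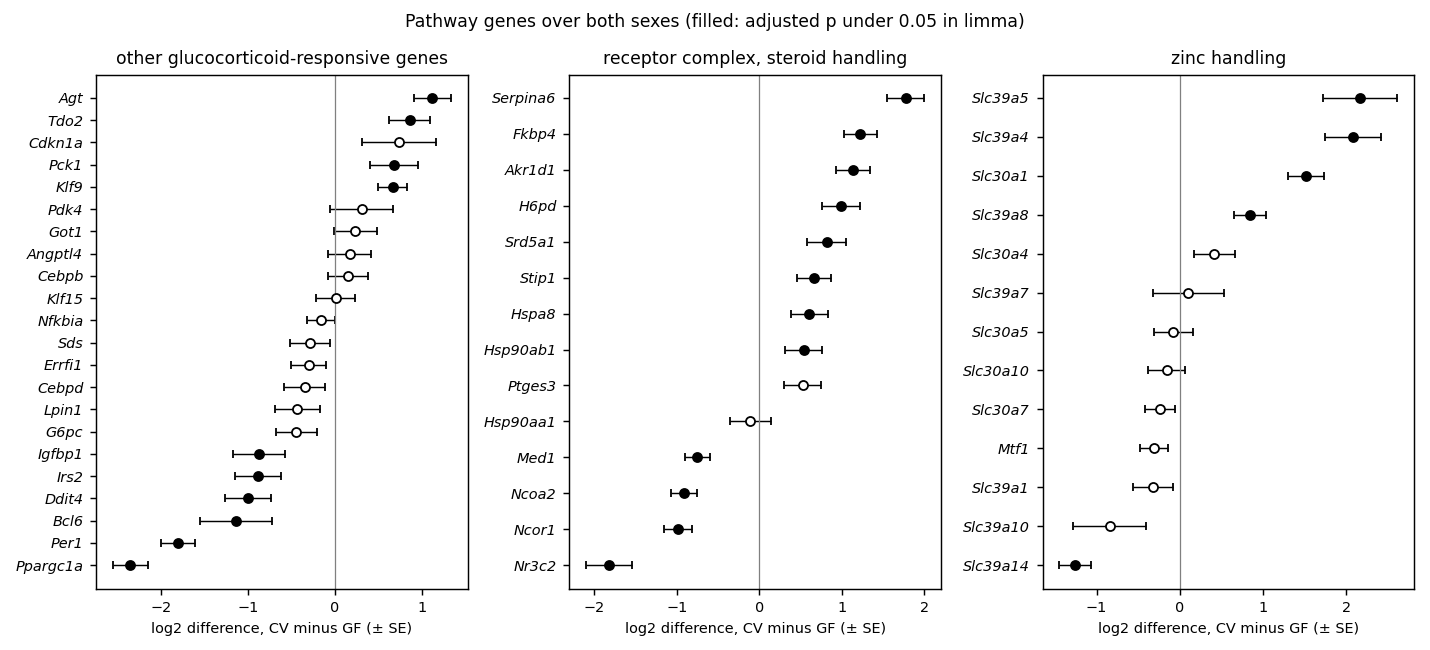
Log2 difference between CV and GF livers over both sexes (points) with SE (bars) for 22 glucocorticoid-responsive genes, 14 genes of the receptor complex and steroid handling and 13 zinc-handling genes. Filled points had an adjusted p under 0.05 in limma. Ppargc1a at -2.36 and Slc39a5 at 2.17 are the ends of the range.

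None of the calls in these 3 lists was kept with either the abundant loci share or that of mitochondrial ribosomal RNA as a covariate, fits in which 7 and 0 of all 11782 genes were called. The differences themselves did not all shrink. With mitochondrial ribosomal RNA and with the abundant loci they were -3.02 and -2.89 for Ppargc1a, 1.72 and 1.84 for Serpina6 and 1.55 and 2.48 for Slc30a1, but -0.39 and 0.14 for Akr1d1 and -0.22 and -2.40 for Slc39a4. The sign also turned with both for H6pd (-1.12 and -1.49), Fkbp4 (-0.17 and -0.45), Pck1 (-0.32 and -1.52) and Tdo2 (-0.15 and -0.99). With the abundant loci alone it turned for Irs2 (1.11), Nr3c2 (0.17) and Ncor1 (0.28). The other genes named from these lists kept their sign with both. Other RNA was compared between the conditions in the same way, where 61.1% of all genes were called, 32.3% higher and 28.7% lower. Among acute phase genes 8 of 9 were called higher in CV livers, with sums of 18049 to 68184 in GF and 72707 to 109628 in CV livers. Hepatocyte markers were called higher for 4 of 6 genes and Kupffer cell markers for 3 of 6. Of 6 stellate cell markers 1 was called higher and 1 lower, of 5 endothelial markers 1 was called lower, and of 5 cholangiocyte markers 0 were called. Lymphocyte markers were called lower for all 5 tested, with sums of 194 to 291 in GF and 57.8 to 89.8 in CV livers, and erythroid markers for 4 of 5. No neutrophil marker of 5 passed the filter. Within males and within females, 29.5% and 55.8% of all genes were called. Acute phase genes were then called for 2 of 9 in males and 8 of 9 in females. Hepatocyte markers were called for 0 of 6 and 3 of 6, and erythroid markers for 1 of 5 and 4 of 5. Kupffer cell markers were called for 2 of 6 in each sex, and lymphocyte markers for 4 of 5 in males and 5 of 5 in females. The part of these RNAs in the differences above was not tested, and in bulk liver fewer cells of a type and less RNA per cell cannot be told apart.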

How the data were processed

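Liver RNA of 12 mice was sequenced after stranded mRNA library preparation. The submitters' processing notes name HTSeq 0.6.1p1, DESeq2 and GRCm38, and the aligner is not given in the sources used here. The paper supplied with the series describes another experiment, and no method was taken from it. The deposited values are a normalized signal per gene, for which the authors divided read counts by 1 size factor per library. In each library 100% of values were whole multiples of 1 read, within 0.01 reads, so the reads were recovered.

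Values entered limma 3.58.1 (R 4.3.3) as log2(value + 1), with genes of mean value of at least 10, 1 mean for each of the 4 groups, a trended prior variance and Benjamini-Hochberg adjustment. This scale understates changes of low genes. The scripts were tested on simulated data. The quasi-likelihood test of edgeR 4.0.16 on the recovered reads, an alternative, called 7634 of 12555 genes between CV and GF over both sexes, and limma 7194 of 11782. DESeq2 1.42.0, voom, other filters, pseudocounts and scalings, a covariate, a replicate block and the omission of each library were also run. The covariate for the 8 abundant loci and the removal of a trend on length and base composition were chosen after seeing the data.

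The 10 genes, the lists and the markers were chosen with earlier results of these data known. From each list, the 4 called genes with the smallest adjusted p in each direction were named. P-values of limma set each difference against the spread between these mice, pooled over all 12 libraries and drawn towards the trended prior. Gene positions and overlaps came from GENCODE M21, which listed 97.9% of the identifiers. Deviations from the group mean, compared between same-numbered males and females, gave r of 0.19, 0.12 and 0.17 in CV livers. In GF livers r was 0.06, 0.40 and 0.07, and across conditions within a sex it lay between -0.23 and 0.02.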

Additional observations from a re-analysis of the deposited data

How the results depend on the processing

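Counts of called genes moved by more than 1.5 times as follows. For the 10 genes between CV and GF males, 4 became 2 with a mean value of at least 1, 1 with no filter, and 0 with either covariate. In females 3 became 6 with scaling to all reads and 0 with either covariate. Between GF males and females 0 became 1 with DESeq2 and with scaling outside the abundant loci, 2 with the length and base composition trend removed, and 3 with scaling to all reads. Between CV males and females 0 became 1, Sgk1, with mitochondrial ribosomal RNA as covariate. The glucocorticoid-responsive, receptor and zinc lists each had 0 with either covariate, and with the trend removed the receptor list had 6 and the zinc list 9. The zinc list also had 9 with scaling outside the abundant loci. With these covariates 0 (mitochondrial ribosomal RNA) and 7 (abundant loci) of all 11782 genes were called over both sexes, against 7194, so the lost calls are not particular to these genes.

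Leaving out 1 library gave 1 to 6 called genes between CV and GF males, 2 to 3 in females, 0 to 2 between GF males and females, 0 between CV males and females and 0 to 2 for the interaction. The count in males was lowest without GF male 3 (1, Dusp1) and highest without GF female 3 (6), and it was 2 without GF male 1, without GF female 1, without the library labelled CV male 3 and when any of CV females 1 to 3 was left out. Between GF males and females it was 2 without GF male 1 (Mt2 and Zbtb16) and without the library labelled CV male 3, and 1 without GF female 3 (Fkbp5) or without CV male 1 (Mt2). The lists had 8 to 11, 10 to 13 and 5 to 6.

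Of 40 differences of the 10 genes (4 comparisons), the sign turned for 12 with the abundant loci and 9 with mitochondrial ribosomal RNA as covariate, 6 with the trend removed, 6 with scaling outside the abundant loci, 4 with scaling to all reads, 2 each with DESeq2 and edgeR, and at most 4 with 1 library left out. Among them, signs turned past the threshold or from a called value for Nr3c1 in females with the trend removed (0.56), for Dusp1 in females with scaling to all reads (0.74), for Zbtb16 in females with the abundant loci as covariate (0.40), for Tsc22d3 in females (-0.63 with mitochondrial ribosomal RNA and -2.29 with the abundant loci) and for Sgk1 in males (0.49 and 0.54). The cause was not tested. Of all other values compared, 968 stayed on their side of the threshold or within their spread. A further 47 differences between CV and GF moved beyond their spread, and 18 between the sexes passed the threshold that the main fit did not pass.

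With the replicate number as a block, 3 of the 10 genes were called between CV and GF males and 2 in females. Between GF males and females 4 were called (Fkbp5, Mt1, Mt2 and Zbtb16), while calls over all genes went from 192 to 830 and r was only 0.06, 0.40 and 0.07. Between CV males and females, where r was 0.19, 0.12 and 0.17, 0 were called, as for the interaction. In the lists the block gave 10, 11 and 5. It raised the calls over all genes between CV males and females from 7 to 24. Across conditions r lay between -0.23 and 0.02, so there the libraries share only a number.

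Depth limits Mt2 most, with 32 reads in GF male 3. Read counts without molecular identifiers cover counting error only.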
